A study of Homo sapiens with 8 samples.

Results

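RFX7 binding was described at the 6 genes of the TOB and BTG family, TOB1, TOB2, BTG1, BTG2, BTG3 and BTG4. The genes were chosen by name, and the peaks by position: a peak counted as near a gene when it lay within 10 kb of the gene body on GRCh38. Of the 6 genes, 2 had a peak in cells treated with Nutlin-3a, TOB1 and TOB2, and none had one in solvent-treated cells. Of all protein-coding genes, 1.35% had such a peak after Nutlin-3a and 0.0649% with solvent. The family held 4 of the 1234 peaks of the Nutlin-3a list and 0 of the 556 peaks of the DMSO list. Chromatin immunoprecipitation with an RFX7 antibody and sequencing (ChIP-seq) was done in RPE-1, an established human line of telomerase-immortalised retinal pigment epithelium. One group received 10 µM Nutlin-3a, an inhibitor that frees p53 from MDM2, for 24 h, and the other group received DMSO, the solvent, for 24 h. Each group had 2 RFX7 samples and 2 input samples from this single line, and the labels do not say whether these came from separate cultures. The values below come from 1 peak list per treatment, which leaves every value without a replicate error and allows no test between treatments. The depth behind the peaks is unknown, since the lists give no read counts.

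The TOB and BTG proteins share an amino-terminal domain that binds the CAF1 deadenylases of the CCR4-NOT complex. Through it they bring the complex to messenger RNAs, whose poly(A) tails are then shortened, and they are known for slowing cell growth when overexpressed. TOB1 and TOB2 also bind poly(A)-binding protein through motifs that the BTG proteins lack. BTG2 is a long-known p53 target gene, and BTG4 acts in the clearance of maternal messenger RNA in the oocyte. RFX7 belongs to the RFX transcription factors, which recognise X-box DNA, a motif built from inverted half-sites.

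The TOB2 peak next to the gene start is shown first, because it is the only family peak that lies in a promoter window of the RefSeq table (GRCh38.p14, 250 bases before to 50 after each annotated start). It spans chr22:41446826-41446975 and is printed 5′ to 3′ on the minus strand, the coding strand of TOB2. Capitals mark a match to GTTGCTA, a variant of the RFX half-site.

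TOB2 peak: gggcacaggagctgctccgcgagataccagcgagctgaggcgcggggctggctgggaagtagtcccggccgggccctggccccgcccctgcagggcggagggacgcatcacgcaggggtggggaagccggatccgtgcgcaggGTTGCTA

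The peak was 150 bp wide with a GC content of 73.3%, and it ended 25 bp before the annotated start of TOB2. Its summit was at base 50 of the printed sequence. The half-site filled the last 7 bases, positions 144 to 150, and lay 31 to 25 bp before the start. The middle of the match was thus 97 bp from the summit, at the edge of the called region.

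To set this match beside others, the same half-site is printed with 10 bases on either side from TOB2 and from the 5 protein-coding genes with the highest fold enrichment among peaks that hold the match in a promoter window. The strand is the one that reads GTTGCTA, in capitals.

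TOB2 (chr22:41446816-41446842, minus strand): cgtgcgcaggGTTGCTAagggtgaaac

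RAB40B (chr17:82698762-82698788, plus strand): gtggaccgcaGTTGCTAgggcagctgc

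LOC124903762 (chr16:29973571-29973597, minus strand): gcccgagcttGTTGCTAggggaagctt

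YPEL2 (chr17:59331591-59331617, plus strand): cccgcggcgtGTTGCTAtgtgctgagc

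CDK4 (chr12:57752501-57752527, plus strand): cacgtgatctGTTGCTAtcacacgtga

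ATOSA (chr15:52652068-52652094, minus strand): tgtgagtgctGTTGCTAtgtgcgctct

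The 7 capitals are the same because sequences were chosen for them, and outside them no base was the same in all 6 sequences. A G 7 bases before the match and a G at position 9, counted from the first capital, were each shared by 5 of the 6. Whether these shared bases matter was not tested. The peak over the site had a fold enrichment of 4.24 at TOB2, 11.9 at RAB40B, 9.05 at LOC124903762, 8.92 at YPEL2, 7.67 at CDK4 and 6.54 at ATOSA. Summits were 2 bp from the middle of the match at CDK4, 11 bp at ATOSA, 16 bp at LOC124903762, 18 bp at YPEL2 and 140 bp at RAB40B. Over all 21 matches inside a peak and a promoter window, the median distance from summit to match was 97 bp (interquartile range 28 to 140 bp), and 10 matches were farther from their summit than the one at TOB2. By fold enrichment of its peak the TOB2 match was in place 18 of the 21.

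GTTGCTA was present in 1001 of 35116 promoter windows of the table (2.85%, 95% Wilson interval 2.68 to 3.03%). Among the 130 windows that a Nutlin-3a peak overlapped, 28 held it (21.5%, 15.3 to 29.4%). The half-site GTTGCC was in 12.2% of all windows and in 24.6% of the overlapped ones. The longer GTTGCCATG, which runs into the centre of the X-box, was in 0.846% and 1.54%. Matches to the p53 half-site, searched by its consensus, were in 6.63% and 5.38%. All motifs were read on both strands. GTTGCTA and GTTGCC differ in their sixth base and cannot match at the same place, and every GTTGCCATG also counts as a GTTGCC. Windows of a gene with several starts can overlap, so they are not independent, and the intervals cover counting error only.

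**Figure D1:**
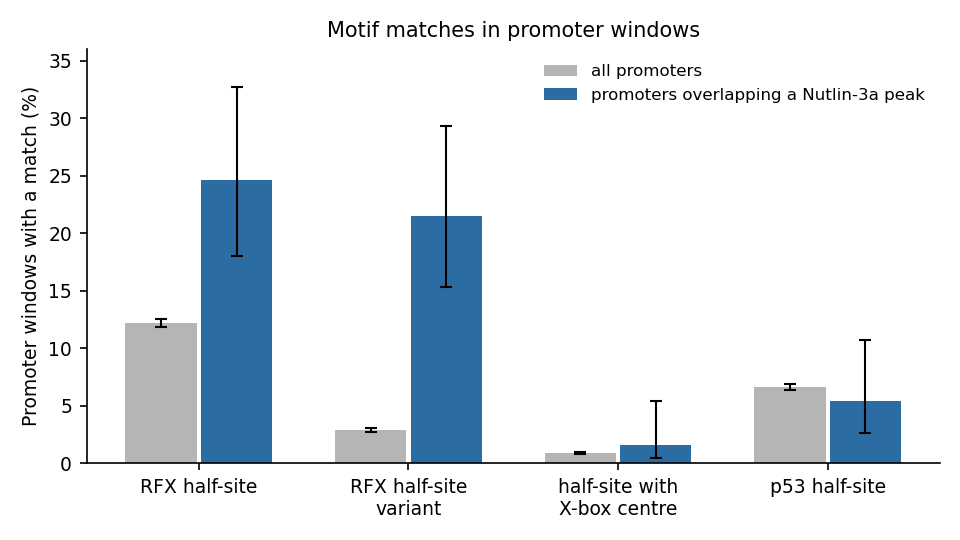
Share of promoter windows with a match to each motif, in percent, for all 35116 windows (grey) and for the 130 windows overlapping a Nutlin-3a peak (blue), with 95% Wilson intervals as error bars. The blue bar of the half-site variant stands at 21.5% and the grey one at 2.85%, while the bars of the p53 half-site are at 5.38% and 6.63% with intervals that overlap.

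The family had 7 promoter windows in the table, 2 for TOB1 and 1 for every other member. GTTGCTA at TOB2 was the only match to any of the 4 motifs in these 7 windows. The TOB2 window was also the only one that a peak overlapped. Both TOB1 peaks and the 622 bp TOB2 peak lay outside the windows, so their sequences were not searched for motifs. The 2 TOB1 windows and those of BTG1, BTG2, BTG3 and BTG4 held no match and no peak, which says only that these letters are not in these windows.

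TOB1 (chromosome 17, 50862223 to 50867978, minus strand) had 2 peaks, both within the gene body. The wider, chr17:50867284-50867750, spanned 467 bp with a fold enrichment of 6.05 and a −log10 p of 24.5. The narrower, chr17:50867063-50867212, spanned 150 bp with a fold enrichment of 3.75 and a −log10 p of 10.3. The peaks were 71 bp apart, with summits 386 bp from each other. The stronger peak was thus the one closer to the outer start of the gene.

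The annotation gives TOB1 an outer start at 50867978 and an inner start at 50866354, and both peaks lay between them. The summit of the wider peak was 448 bp downstream of the outer start and 1176 bp upstream of the inner start. For the narrower peak these distances were 834 bp and 790 bp. Which start is used in these cells was not measured. Both peaks also lay within TOB1-AS1, a long non-coding RNA gene on the opposite strand (50866679 to 50868371), whose start was 851 bp and 465 bp from the 2 summits.

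TOB2 (chromosome 22, 41433494 to 41446801, minus strand) also had 2 peaks, and both were upstream of the gene. The peak printed above had a fold enrichment of 4.24 and a −log10 p of 17.7, with its summit 125 bp before the start. The other, chr22:41448292-41448913, spanned 622 bp with a fold enrichment of 7.65 and a −log10 p of 31.7, and its summit was 1781 bp before the start. The gap between them was 1316 bp. At TOB2 the peak farther from the start was therefore the wider and stronger one by both measures.

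Both TOB2 peaks overlapped LOC105373043, a long non-coding RNA gene on the opposite strand (41446945 to 41448893). Its start lay inside the 150 bp peak, 19 bp from the summit, and the 622 bp peak covered its far end. TOB2 was the nearest protein-coding gene to both peaks, and the next, PHF5A, was 12742 and 10804 bp away. Of the 398 Nutlin-3a peaks outside clusters, 18.3% overlapped a long non-coding RNA gene. Of the 235 within 10 kb of a protein-coding gene, 19.6% did. All 4 peaks of TOB1 and TOB2 did as well, but each pair lay at a single such gene, so the 4 are not independent. Clusters are places where a peak has at least 5 other peaks of either list within 500 kb, and they hold 67.7% of the Nutlin-3a list.

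**Figure D2:**
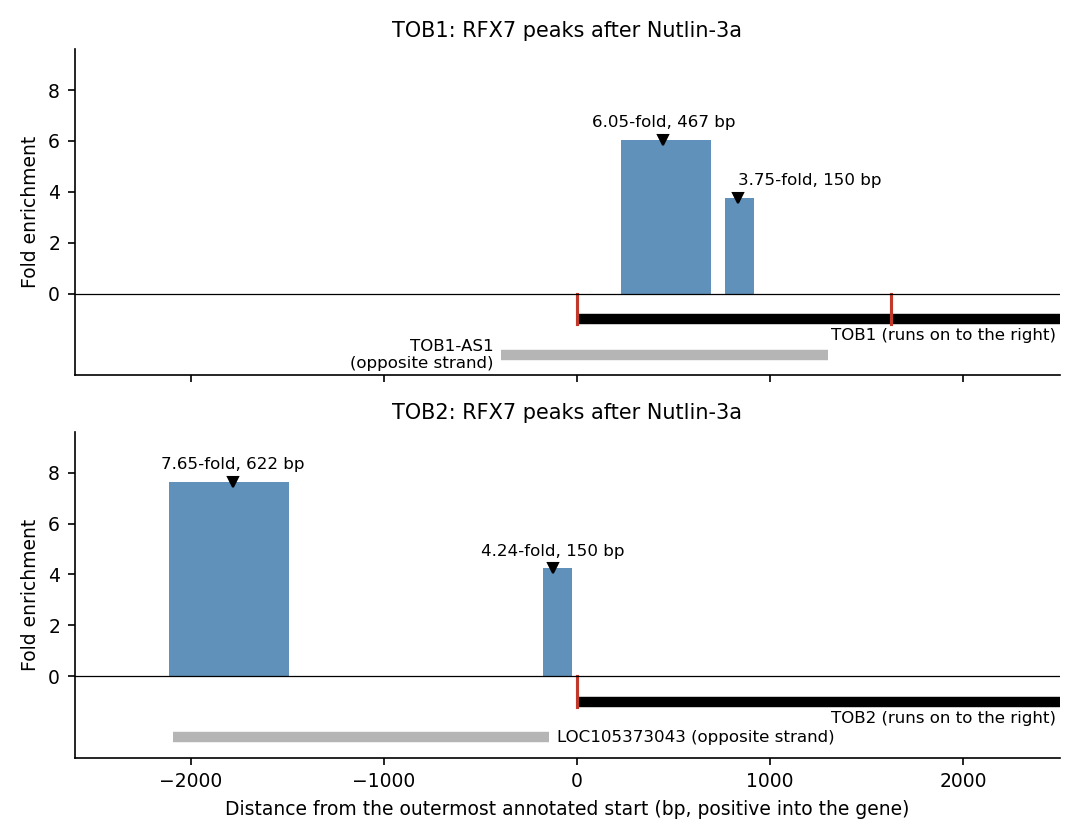
Peaks of the Nutlin-3a list at TOB1 (top) and TOB2 (bottom), with distance from the outermost annotated start on the x axis (bp, positive into the gene) and fold enrichment as bar height, which is 1 value per peak. Bar width is the width of the peak, triangles mark summits, red lines annotated starts, black bars the gene and grey bars the opposite-strand non-coding gene. The TOB1 peaks sit inside the gene between its 2 starts, and the TOB2 peaks sit before the start.

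Each pair stood alone: every one of the 4 peaks had 1 other peak of either list within 500 kb, which was its partner. A pair is uncommon among genes with a peak. Of 20037 protein-coding genes, 264 had a peak outside clusters within 10 kb. Of these 264, 20 had at least 2, which is 0.0998% of all 20037 genes. TOB1 and TOB2 were among these 20, although overlapping genes can share peaks in this count. The TOB1 peaks were only 71 bp apart, and whether they are separate sites was not tested. In both pairs one peak was 150 bp wide, a width not particular to them. Peaks within 10 kb of a protein-coding gene had a median width of 150 bp in the DMSO list and 255 bp in the Nutlin-3a list. The fold enrichment of the wider peak was 1.61 times that of the narrower at TOB1 and 1.80 times at TOB2.

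By fold enrichment the 4 peaks lay in the first 28.0% of the list. The 622 bp TOB2 peak was in place 52 of 1234 and the 467 bp TOB1 peak in place 104. The 150 bp peak of TOB2 was in place 260 and that of TOB1 in place 346, the last tied with 1 other peak. By −log10 p the same peaks were nearer the middle or lower. The places were 483 for the 622 bp TOB2 peak, 604 for the 467 bp TOB1 peak, 738 for the 150 bp TOB2 peak and 961 for the 150 bp TOB1 peak, again with 1 tie. The order of the 4 peaks was the same by both measures, with the TOB2 peak ahead of the TOB1 peak of the matching kind.

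Much of the list is made up of clustered peaks, and among peaks near genes the places of the TOB peaks were different. The 235 Nutlin-3a peaks within 10 kb of a protein-coding gene had a median fold enrichment of 4.47 (interquartile range 3.59 to 6.11) and a median −log10 p of 18.2 (10.0 to 38.7). The 622 bp TOB2 peak was in place 33 of these 235 by fold enrichment and 82 by −log10 p. The 467 bp TOB1 peak was in places 62 and 101. The narrow TOB2 peak was in places 132 and 122, and the narrow TOB1 peak in places 164 and 175. Only the 622 bp TOB2 peak was above the upper quartile of fold enrichment, and the narrow pair was below the median.

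**Figure D3:**
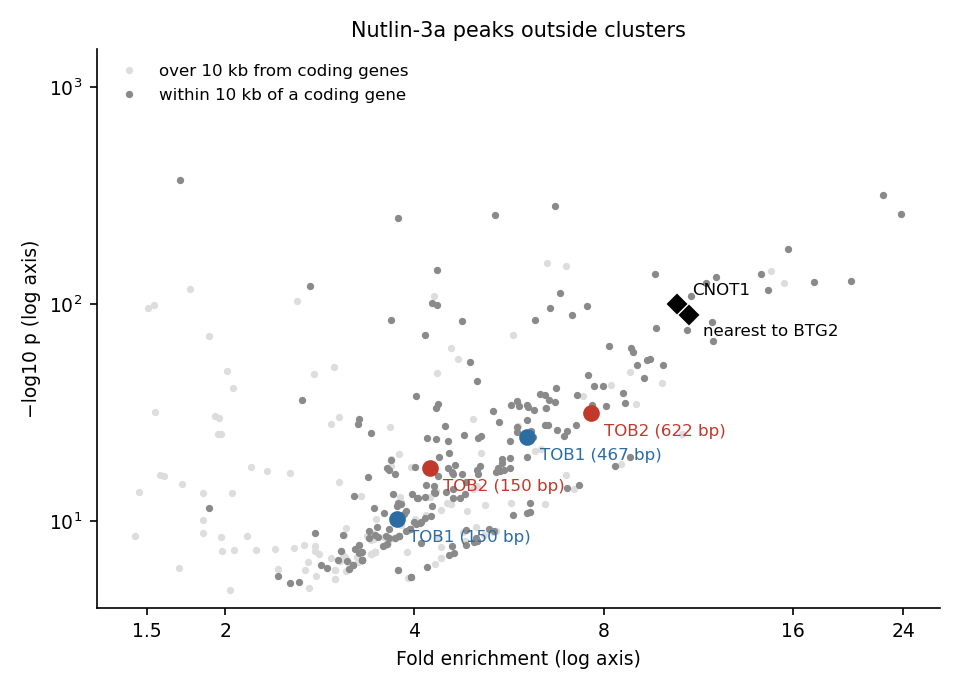
Fold enrichment (x) against −log10 p (y), both on log axes, for the 398 Nutlin-3a peaks outside clusters, with peaks within 10 kb of a protein-coding gene in dark grey and the rest in light grey. The TOB1 peaks (blue) and TOB2 peaks (red) lie along the main body of the points, with fold enrichments of 3.75 to 7.65, and the peaks at CNOT1 and nearest to BTG2 (black diamonds) lie above 10-fold.

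Peaks most like those of the TOB genes in strength were taken as the 2 above and the 2 below the best peak of each gene in the order by fold enrichment among these 235. Around the 622 bp TOB2 peak these were at LIMCH1 (7.72-fold), CDK4 (7.67-fold), SOX12 (7.56-fold) and TCAIM (7.52-fold). CDK4 encodes the cyclin-dependent kinase that drives cells through G1, and SOX12 a transcription factor of the SRY-box group. Their −log10 p ranged from 34.3 at CDK4 to 98.4 at TCAIM, all above the 31.7 at TOB2. Around the 467 bp TOB1 peak they were at CA10 (6.11-fold), SPRYD3 (6.06-fold) and SENP2 (6.05-fold), and 6032 bp from PDLIM4 (6.05-fold). The CA10 peak was only 50 bp wide. SENP2 encodes a SUMO protease, and CA10 a carbonic anhydrase-related protein. Their −log10 p ranged from 11.0 at CA10 to 34.4 at SENP2, around the 24.5 at TOB1. Likeness here is rank distance in 1 list and says nothing of shared function.

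The 4 BTG genes had no peak within 10 kb in either list. BTG2 (chromosome 1, 203305519 to 203309602), named above as a p53 target gene, came closest. A peak at chr1:203327053-203327953 was 17.5 kb beyond its end and so outside the 10 kb limit, whereas the farthest peak inside the limit was 1491 bp from TOB2. This peak was stronger than any at the TOB genes, with a width of 901 bp, a fold enrichment of 10.9 (place 16 of 1234) and a −log10 p of 89.7 (place 167). Its summit was 21932 bp downstream of the BTG2 start. Its nearest protein-coding gene was FMOD, which encodes the matrix protein fibromodulin, at 12675 bp. No other peak of either list lay within 500 kb of it, and to which gene it belongs cannot be read from the position.

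BTG1, BTG3 and BTG4 were far from any Nutlin-3a peak. The nearest was 759 kb from BTG1 (chromosome 12, 92140278 to 92145846), 221 kb from BTG4 (chromosome 11, 111383826 to 111514725) and 6.81 Mb from BTG3 (chromosome 21, 17593653 to 17612901). BTG4 has the longest annotated body of the family, at 130900 bp. Having no peak within 10 kb was the rule, since 1.35% of all protein-coding genes had one in the Nutlin-3a list.

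In the DMSO list the nearest peak was 6.78 Mb away at BTG3, 24.0 Mb at TOB1, 24.6 Mb at BTG1, 25.1 Mb at TOB2, 56.5 Mb at BTG2 and 57.4 Mb at BTG4. None of the 4 TOB peaks overlapped a DMSO peak, and neither did the CNOT1 peak or the Nutlin-3a peak nearest to each BTG gene. How often the other Nutlin-3a peaks overlap a DMSO peak was not counted, so the lack of overlap cannot be read as particular to TOB1 and TOB2. Clusters held 88.8% of the DMSO list, and only 7 of its peaks lay outside them and within 10 kb of a protein-coding gene. Of the 556 DMSO peaks 25 lay within 10 kb of any protein-coding gene, and a site missing from it was not called there, which does not show that RFX7 was absent.

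**Figure D4:**
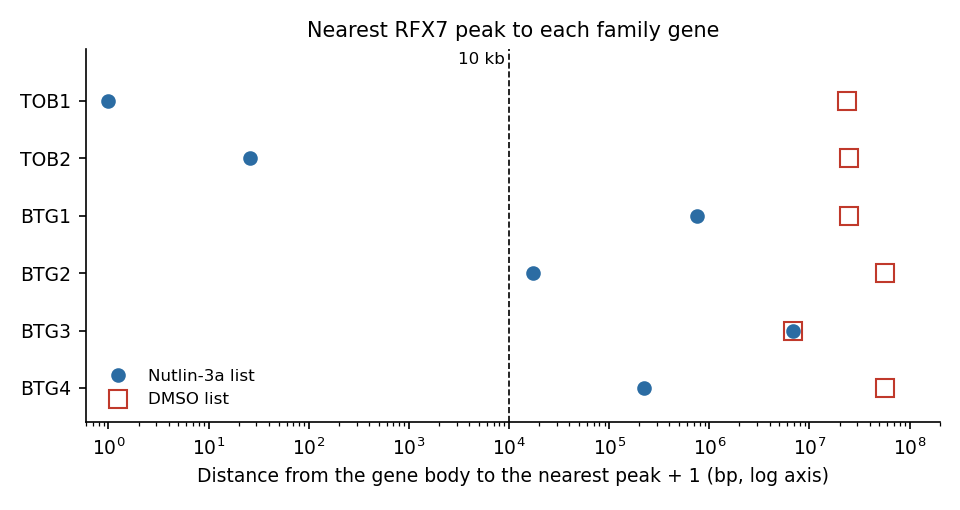
Distance from each family gene body to the nearest peak, with 1 bp added and on a log axis, in the Nutlin-3a list (filled circles) and the DMSO list (open squares), and the 10 kb limit as a dashed line. TOB1 and TOB2 have Nutlin-3a peaks left of the limit, BTG2 lies right of it at 17.5 kb, and all DMSO values are above 6 Mb.

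The count of 2 of 6 in the Nutlin-3a list (33.3%, 95% Wilson interval 9.68 to 70.0%) stands beside a background of 1.35% of all 20037 protein-coding genes (270 genes) with a peak within 10 kb. The count of 0 of 6 in the DMSO list stands beside 0.0649% (13 genes). Its 95% Wilson interval reaches up to 39.0%, and a count of 3 of 6 would be 50%. With limits of 1, 50 and 100 kb in place of 10 kb the Nutlin-3a counts were 2, 3 and 3, BTG2 being the gene added, beside 1.03%, 2.85% and 4.49% of all coding genes. The DMSO counts were 0 at each of these limits, beside 0.0499%, 0.205% and 0.319%. The family was proposed with results at TOB1 known, so its share is a description. Among the 209 Nutlin-3a peaks outside clusters, near coding genes and on chromosomes that the promoter table covers, 103 had their summit within 1000 bp of an annotated coding start (49.3%), 69 upstream and 34 downstream. The summits of both TOB1 peaks and of the narrow TOB2 peak were within that distance of a start, and that of the wide TOB2 peak was not.

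Genes of messenger RNA deadenylation, the process in which the family acts, were looked up in the same way, as a list of 21. They comprise subunits of CCR4-NOT, the PAN2-PAN3 deadenylase, PARN, poly(A)-binding proteins and the CPEB proteins, RNA-binding proteins that TOB can bind. In the Nutlin-3a list 1 of the 21 had a peak within 10 kb, again beside 1.35% of all coding genes, and in the DMSO list 0 did, beside 0.0649%. A count of 0 of 21 allows a share of up to 14.3%. The gene was CNOT1, the scaffold on which the CCR4-NOT complex is assembled. Its peak, chr16:58629649-58630413, overlapped the boundary of the gene body with the higher coordinate, 58629826, spanned 765 bp and had a fold enrichment of 10.5 (place 19 of 1234) and a −log10 p of 101 (place 144). It was stronger by both measures than the peaks of TOB1 and TOB2. CNOT7 and CNOT8, the CAF1 deadenylases that TOB and BTG proteins bind directly, and the other 18 genes had none.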

How the data were processed

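The deposited data were 2 narrowPeak lists, 1 for each treatment. The submitters' processing notes name the build hg38 and, among other tools, Trimmomatic 0.39, SAMtools 1.10, MACS2 2.2.7.1 and bedtools 2.29.2, without their roles. How replicates and inputs entered the lists is not given in the sources used here. In the deposited lists each peak has a score, a fold enrichment (a ratio whose reference is not stated), its p-value and its q-value as −log10, and the offset of its summit in bp. All are the authors' values, used here to describe and rank peaks within a list.

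Distances ran from the peak interval to the RefSeq gene body (GRCh38.p14, 20037 protein-coding genes on the main chromosomes). Strands, starts and sequences came from the RefSeq promoter table, which matched all 6 members and supplied 300 bases per start. No window of CNOT1 was used here. Positions are counted from 1. Intervals are 95% Wilson intervals, and a count of 0 is given the share that 3 counts would have. No test was run. The distance function was tested on simulated data. Python 3.11.15, pandas 2.3.3 and scipy 1.17.1 were used.

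The members, gene lists and rules were chosen with earlier results of these data known. Named genes are the 6 members, deadenylation genes with a peak, and the neighbours in rank of the best peak of each member. The genes with a printed half-site, the summit distances to it and the counts of paired peaks and non-coding overlaps were chosen after the data were seen. Alternatives changed the distance limit, the q-value limit, the use of summits, clustered peaks and the ranking.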

Additional observations from a re-analysis of the deposited data

How the results depend on the processing

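No paired analysis was possible because the samples of a treatment come as a single peak list, and likewise no replicate could be left out. The family count in the Nutlin-3a list was 2 with limits of 1 and 5 kb, with summits in place of intervals, with −log10 q of at least 5 and with peaks outside clusters only, and 3 with limits of 50 and 100 kb. The deadenylation count rose from 1 to 2 at 50 kb, where PAN2 was added with a peak 49.7 kb away that overlapped COQ10A. The counts in the DMSO list were 0 under every alternative run. Places in the ranking depended on the choice. Of 28 alternative places of the 4 TOB peaks, 24 fell outside the 95% Wilson interval of the place in the whole list, taken as a percentage. That interval served only as a yardstick, since a place in a list is a fixed position and has no sampling error. Every alternative changed the set of peaks ranked or the measure. The 622 bp TOB2 peak was at 4.21% of the list by fold enrichment, at 10.6% of peaks outside clusters, at 12.8% of peaks at least 300 bp wide and at 39.0% by −log10 q. The 150 bp TOB1 peak was at 28.0%, 59.3% and 77.6% in the first, second and last of these. The narrow peaks have no place among peaks of at least 300 bp. Unknown read depth limits every absence in either list.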

Other observations

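The Nutlin-3a peaks nearest to the remaining BTG genes lay at other genes or in a cluster. The one nearest to BTG4 (chr11:111735448-111736199, 5.45-fold, −log10 p 28.6) overlapped PPP2R1B, which encodes a scaffold subunit of protein phosphatase 2A. The one nearest to BTG1 (chr12:91381292-91381705, 7.42-fold, −log10 p 37.9) lay inside the non-coding gene LOC105369896, and its nearest protein-coding gene was DCN at 198475 bp. The one nearest to BTG3 (chr21:10784283-10784533, 2.76-fold, −log10 p 9.41) had 34 other peaks of the lists within 500 kb, and its nearest protein-coding gene was TPTE at 178567 bp.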
